A study of Mus musculus with 3 samples.

Results

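The genes of the circadian clock were examined on arrays carrying RNA of OS25, a line of mouse embryonic stem (ES) cells. The 10 genes were Per1, Per2, Per3, Cry1, Nr1d1, Nr1d2, Dbp, Arntl (also called Bmal1), Clock and Bhlhe40, and they were found by gene symbol among the annotated probes of the authors' processed table. Of these, 9 genes had 12 named probes between them, out of 9678 genes named in all, and Cry1 was not analysed here. The series holds 1 group, labelled undifferentiated ES cells, with 3 biological replicates of total RNA, each on its own Illumina BeadArray. The medium of all 3 cultures held foetal calf serum at 10%, human leukaemia inhibitory factor (LIF, which sustains self-renewal) at 1000 units/mL and hygromycin at 0.1 mg/mL. The labels give a single cell line, with no treatment, second genotype or second condition, and they do not state the hours between the last medium change and harvest. No group can therefore be tested against another, and the values below describe how each gene was detected and how far the replicates differed.

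In the mammalian clock, the CLOCK and BMAL1 proteins bind E-box sequences as a pair and switch on the Per and Cry genes, whose protein products return to the nucleus and inhibit that pair. The same pair drives Nr1d1 and Nr1d2, which encode the nuclear receptors REV-ERB alpha and beta. REV-ERBs repress Arntl through elements that ROR receptors activate, so in rhythmic cells the E-box driven genes and Arntl rise and fall at opposing times. Mouse ES cells are known to lack a running clock until they differentiate. Per1 and Per2 can also be induced at once by serum, cyclic AMP and glucocorticoid hormone, without the feedback loop.

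The promoters of the measured genes differ in which of these elements lie close to the start site. RefSeq promoter windows (GRCm38.p6), which run from 250 bases before to 50 bases after an annotated start, were matched for 8 of the 10 genes in 12 windows, and Per2 and Bhlhe40 were not matched. The 6 windows below are those of measured clock genes that held any of the motifs searched. Capitals mark exact matches on either strand to the E-box CACGTG, the E-box variant CACGTT, the D-box TTATGTAA or TTATGCAA, which DBP binds, and the REV-ERB and ROR core AGGTCA. The windows lie at chr11:69098699-69098998 on the plus strand (Per1, the upstream of 2 windows), chr4:151044616-151044915 on the minus strand (Per3), chr11:98775328-98775627 on the minus strand (Nr1d1), chr14:18239057-18239356 on the minus strand (Nr1d2), chr7:113207261-113207560 on the plus strand (Arntl, the downstream of 2 windows) and chr5:76303453-76303752 on the minus strand (Clock, the third of 3 windows).
Per1: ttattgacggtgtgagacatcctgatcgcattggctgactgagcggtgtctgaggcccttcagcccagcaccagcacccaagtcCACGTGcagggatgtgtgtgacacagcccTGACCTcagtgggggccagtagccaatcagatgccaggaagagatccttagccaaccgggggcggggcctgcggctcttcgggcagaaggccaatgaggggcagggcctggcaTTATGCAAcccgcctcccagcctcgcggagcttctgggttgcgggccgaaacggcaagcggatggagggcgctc
Per3: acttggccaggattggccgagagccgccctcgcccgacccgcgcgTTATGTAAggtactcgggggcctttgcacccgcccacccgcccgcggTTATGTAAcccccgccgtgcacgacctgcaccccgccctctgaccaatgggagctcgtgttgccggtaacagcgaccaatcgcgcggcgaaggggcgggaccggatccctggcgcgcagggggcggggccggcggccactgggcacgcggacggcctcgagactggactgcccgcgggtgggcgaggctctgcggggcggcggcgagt
Nr1d1: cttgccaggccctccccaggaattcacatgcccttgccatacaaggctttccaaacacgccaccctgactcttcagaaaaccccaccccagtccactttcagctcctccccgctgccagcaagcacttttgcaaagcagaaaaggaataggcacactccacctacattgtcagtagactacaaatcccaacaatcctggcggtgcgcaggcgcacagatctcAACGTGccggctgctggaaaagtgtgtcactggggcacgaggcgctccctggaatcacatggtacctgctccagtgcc
Nr1d2: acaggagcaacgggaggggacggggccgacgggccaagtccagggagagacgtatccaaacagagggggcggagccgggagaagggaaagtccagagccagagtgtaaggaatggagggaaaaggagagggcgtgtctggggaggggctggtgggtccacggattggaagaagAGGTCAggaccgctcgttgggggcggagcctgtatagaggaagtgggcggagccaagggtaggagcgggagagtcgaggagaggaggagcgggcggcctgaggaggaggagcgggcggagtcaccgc
Arntl: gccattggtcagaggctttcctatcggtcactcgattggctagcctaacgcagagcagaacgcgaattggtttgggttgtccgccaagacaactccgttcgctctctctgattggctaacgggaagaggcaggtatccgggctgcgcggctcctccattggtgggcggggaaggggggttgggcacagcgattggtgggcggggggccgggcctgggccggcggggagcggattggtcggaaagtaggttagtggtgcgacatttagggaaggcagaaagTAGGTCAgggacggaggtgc
Clock: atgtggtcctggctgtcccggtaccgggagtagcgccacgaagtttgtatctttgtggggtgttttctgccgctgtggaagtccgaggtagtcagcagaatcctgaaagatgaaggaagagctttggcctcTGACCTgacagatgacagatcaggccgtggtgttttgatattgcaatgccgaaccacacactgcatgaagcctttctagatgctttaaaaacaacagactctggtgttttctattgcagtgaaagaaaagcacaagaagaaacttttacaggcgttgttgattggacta

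The Per1 window held an E-box, a D-box and the core on the reverse strand (TGACCT). The Per3 window held the D-box TTATGTAA at 2 places and no E-box. The Nr1d1 window held the E-box variant on the reverse strand (AACGTG), the Nr1d2 window the core AGGTCA, and the Arntl window that core after a T (TAGGTCA, which overlaps it). Among all 32851 windows of 300 bases, 7.15% held the E-box, 4.68% its variant, 0.938% TTATGTAA, 0.743% TTATGCAA, 16.3% the core and 2.61% the core after a T. The cyclic AMP element TGACGTCA, in 1.79% of all windows, and the core after an A (AAGGTCA), in 4.72%, were in no window of the clock genes. The Dbp window, the other windows of Per1 and Arntl and the first 2 of 3 Clock windows held none of these letters, the third Clock window held the core on the reverse strand, and the Cry1 window held an E-box and its variant. A match describes the letters in these windows alone, and elements in introns or farther upstream were not searched.

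The arrays differed in brightness and replicate 1 stood apart from the others. Median raw intensity was 74.9 to 80.7, and 14515 to 15865 of 45281 probes were above background on an array, taken as a detection p under 0.01 against negative control beads. Across 13777 probes above background on all arrays, Pearson's r was 0.949 and 0.951 for replicate 1 against replicates 2 and 3 and 0.990 between replicates 2 and 3. Of the ES cell markers listed, Pou5f1, Nanog and Sox2 had no named probe and were not analysed here. Of 12 such markers 4 had a named probe and 2 were detected on every array, Klf2 (7.64 ± 0.09 in log2 units, SD, n = 3) and Klf4 (7.47 ± 0.87), while Zfp42 and Tfcp2l1 were not. Of 10 fibroblast markers 8 had a named probe and 6 were detected, with Col1a1 at 11.90 ± 0.12 and Col1a2 at 6.93 ± 0.60 (SD, n = 3), while Col3a1 and Dcn were at background on replicate 3. Of the 6 detected, 5 spanned over 2-fold, against 10.1% of all detected genes. Members of the list moved in opposite directions with replicate 1. Dcn, which is not among the 6, was at 12.28, 6.77 and 5.42 on replicates 1, 2 and 3, the last at background. Thy1, singled out after its values were seen, was at 6.81, 9.85 and 9.49. Pdgfra (9.59, 6.07 and 5.84) and Fbln2 (11.65, 13.64 and 13.38), also chosen after their values were seen, differed in the same opposite ways. The summed normalised intensity of the fibroblast markers was 13362, 18425 and 15394 on replicates 1, 2 and 3, and that of the ES cell markers 373, 515 and 505. Such a sum follows its brightest probes and does not measure a share of cells. Fbln2 contributed most to the fibroblast sum on replicates 2 and 3. Of the ES cell markers Klf4 alone was lowest on replicate 1, at 6.48, 8.08 and 7.86, while Zfp42 and Tfcp2l1 were highest there. Neural markers were detected at 2 of 2 named genes (Nes and Map2) and endoderm markers at 3 of 4 (Gata6, Dab2 and Sparc, not Gata4). Among all named genes 82.2% were detected on every array, the share to set beside each of these marker counts. Nes (8.28, 9.39 and 9.17) and Map2 (8.43, 7.53 and 7.39) differed in opposite directions on replicate 1. The summed intensity of the endoderm markers was 9818, 7675 and 6547, and all 3 detected ones were highest on replicate 1 and lowest on replicate 3. Among all detected genes 43.3% were highest on replicate 1 and 30.6% lowest on replicate 3. These markers alone do not settle the label, and the part that other cell types take in the clock gene values was not tested.

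Most of the clock was transcribed above background in these cultures. Of the 9 measured genes, 7 were detected on all 3 arrays (Per1, Per2, Nr1d2, Dbp, Bhlhe40, Arntl and Clock), and the remaining pair, Per3 and Nr1d1, on some. The share of all named genes detected in this way was 82.2%, a high share because names are given for probes in the authors' processed table, so the count does not set the clock genes apart. Levels are normalised log2 intensities of the gene's brightest probe, given as mean ± SD over n = 3 arrays. A probe's brightness depends on its sequence, so a level is compared between arrays and not between genes.

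**Figure D1:**
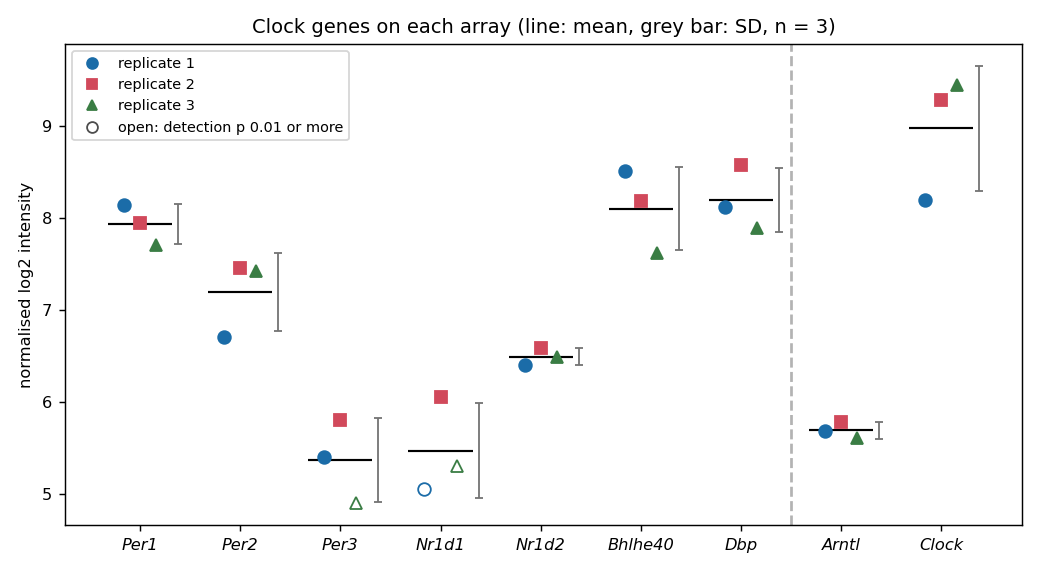
Normalised log2 intensity of the 9 measured clock genes, with 1 symbol per array, the mean as a line and the SD (n = 3) as a grey bar; open symbols are arrays where the detection p was 0.01 or more. Clock is the gene with the widest spread, low on replicate 1 (8.20) and higher on replicates 2 (9.29) and 3 (9.45), while Arntl stays between 5.61 and 5.78; levels of different genes come from different probes and cannot be ranked.

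The Per genes encode the PERIOD proteins that, with the cryptochromes, inhibit CLOCK and BMAL1. Per1 had raw intensities of 397, 294 and 228 on replicates 1, 2 and 3, which became log2 levels of 8.14, 7.95 and 7.71 (7.93 ± 0.22, n = 3). It was highest on replicate 1 and lowest on replicate 3, a range of 0.43 log2 units or 1.35-fold, and 46.8% of all detected genes had a wider range. The second Per1 probe, at 6.90, 6.94 and 6.73, was also lowest on replicate 3, with replicates 1 and 2 in the reverse order.

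Per2 followed another order. Its intensities were 184, 225 and 196, and its log2 levels 6.71, 7.46 and 7.43 on replicates 1, 2 and 3 (7.20 ± 0.42, n = 3). Replicate 1 was low and replicate 2 exceeded replicate 3 by 0.02. The second Per2 probe gave 6.69, 7.32 and 7.38, with the same low replicate 1 and replicate 3 the highest. The brightest probes of Per1 and Per2 moved in opposite directions between replicate 1 and the mean of replicates 2 and 3. The differences were 0.31 for Per1 and −0.73 for Per2 on the log2 scale. The second Per1 probe did not share that rise, with 6.90 on replicate 1 lying between 6.94 on replicate 2 and 6.73 on replicate 3.

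Per3, the PERIOD gene that is least needed for rhythm in mice, was close to background. Its intensities were 106, 111 and 80.0, with detection p of 0.00427, 0 and 0.0919 on replicates 1, 2 and 3. Replicates 1 and 2 were thus above background, unlike replicate 3. The log2 levels were 5.41, 5.81 and 4.90 (5.37 ± 0.45, n = 3), and the value on replicate 3 is only an upper bound.

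The REV-ERB genes, which encode repressors of Arntl, were detected unequally. Nr1d1 had intensities of 93.2, 121 and 88.6 and detection p of 0.0246, 0 and 0.0171, so that only replicate 2 was above background. Its log2 levels were 5.06, 6.05 and 5.31 (5.47 ± 0.52, n = 3). Nr1d2 was above background on every array, at intensities of 159, 149 and 128 and log2 levels of 6.41, 6.59 and 6.49 (6.50 ± 0.09, n = 3). Its range was 0.18 log2 units, and 84.0% of detected genes had a wider one. Replicate 2 was the highest array for both REV-ERB genes.

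Bhlhe40 encodes DEC1, an E-box binding repressor that is also induced by serum, hypoxia and other signals. Its intensities were 496, 337 and 217, and its log2 levels 8.52, 8.19 and 7.62 on replicates 1, 2 and 3 (8.11 ± 0.45, n = 3). It had the same order of arrays as the brightest Per1 probe, highest on replicate 1 and lowest on replicate 3. Its range was 0.90 log2 units or 1.86-fold. A wider range was found for 12.9% of detected genes.

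Dbp encodes a transcription factor that carries the rhythm to output genes through D-boxes. Its intensities were 392, 424 and 251, and its log2 levels 8.12, 8.58 and 7.89 on replicates 1, 2 and 3 (8.20 ± 0.35, n = 3). Replicate 2 was the highest and replicate 3 the lowest, a range of 0.69 log2 units or 1.61-fold, which 23.4% of detected genes exceeded.

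The activator genes differed most from each other. Arntl had intensities of 118, 110 and 95.4, with detection p of 0, 0 and 0.00641, and log2 levels of 5.69, 5.78 and 5.61 on replicates 1, 2 and 3 (5.69 ± 0.09, n = 3). Its range was 0.18 log2 units or 1.13-fold, and 85.0% of detected genes had a wider one, at a signal close to background. Clock, which encodes the partner of BMAL1, had intensities of 409, 658 and 644 and log2 levels of 8.20, 9.29 and 9.45 (8.98 ± 0.68, n = 3). Replicate 1 was low and replicates 2 and 3 were close together. The range of Clock was 1.25 log2 units or 2.38-fold, and 5.56% of detected genes had a wider one. The second Clock probe had the same order, at 5.54, 6.32 and 6.40.

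Clock was the 1 gene among the 7 detected clock genes that spanned over 2-fold between arrays, against 10.1% of all detected genes. Without normalisation between arrays the 1 gene was Bhlhe40 (1.42 log2 units) and Clock spanned 0.77. Without replicate 1 none of them did, and the range of Clock was then 0.16 log2 units. Replicate 1 was the lowest array for 3 of the 7 (Per2, Nr1d2 and Clock), the highest for 2 (Per1 and Bhlhe40) and the farthest from the middle array for 2 (Per2 and Clock). Among all detected genes those shares were 43.4%, 43.3% and 63.7%. Replicate 2 was the highest array for 4 of the 7, against 28.1% of all detected genes, and replicate 3 the lowest for 4, against 30.6%. The median range of the 7 genes was 0.69 log2 units, and that of all detected genes 0.41.

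The opposing arms of the clock were compared on each array, to ask whether E-box driven genes were high where the activator genes were low. Each gene's deviation from its own mean over the 3 arrays was averaged over the 7 measured E-box driven genes (Per1, Per2, Per3, Nr1d1, Nr1d2, Dbp and Bhlhe40) and over Arntl and Clock. The E-box driven arm stood at −0.06, 0.26 and −0.20 log2 units on replicates 1, 2 and 3. The activator arm stood at −0.39, 0.20 and 0.19. The difference, E-box driven minus activator, was thus 0.33, 0.06 and −0.39. The arms moved in opposite directions on replicate 3 and in the same direction on replicates 1 and 2.

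The deviations of the activator arm were mostly those of Clock. With Clock alone, the difference was 0.72, −0.05 and −0.67 on replicates 1, 2 and 3, and with Arntl alone −0.05, 0.17 and −0.12. Relative to Clock, each of the 7 E-box driven genes was at its highest on replicate 1 and at its lowest on replicate 3. Relative to Arntl, 2 were highest on replicate 1, 3 on replicate 2 and 2 on replicate 3. Per3 and Nr1d1, at background on replicate 3, are among the 7. Clock itself was low: 2.79% of detected genes had a lower difference between replicate 1 and the mean of replicates 2 and 3. The same counts were not made over all detected genes, so they do not set the E-box driven genes apart. These counts share the values of a single activator gene in each case, and the genes are not replicates, so no p is given. Without Bhlhe40 the differences were 0.26, 0.09 and −0.35. On replicate 2 the sign turned to −0.04 with genes detected on all arrays alone, and to −0.0037 in the authors' processed values.

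**Figure D2:**
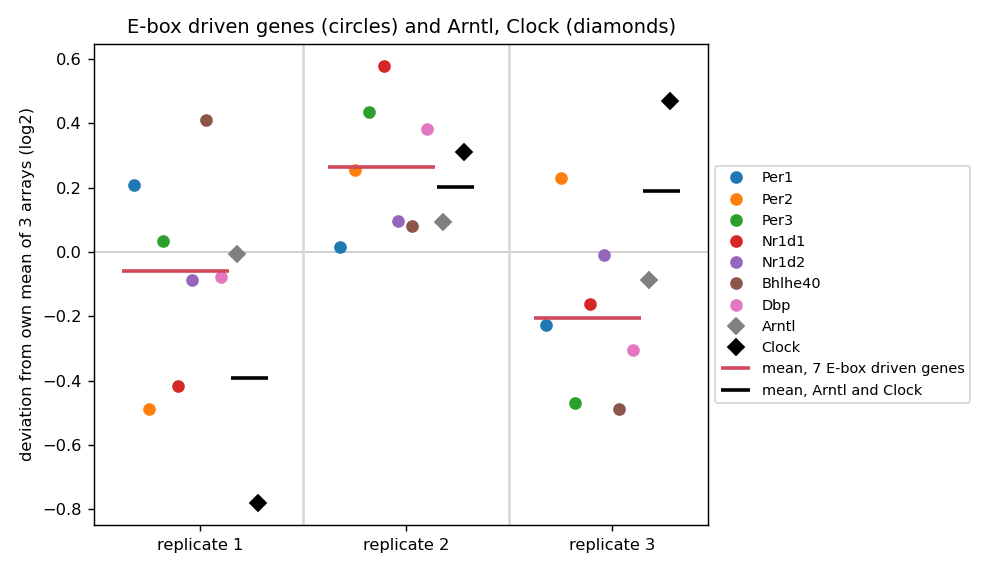
Deviation of each clock gene from its own mean over 3 arrays, in log2 units, for each array; circles are E-box driven genes, diamonds Arntl and Clock, and bars the mean of each arm. The E-box driven arm is at 0.26 on replicate 2 and −0.20 on replicate 3, while Clock is at −0.78 on replicate 1, 0.31 on replicate 2 and 0.47 on replicate 3.

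Replicates 2 and 3 were the arrays most alike across the probes above background on all arrays. Their differences in the E-box driven genes ran from small (Per2 and Nr1d2) to over 0.5 log2 units (Dbp and Bhlhe40). All 5 E-box driven genes detected on every array were higher on replicate 2, against 52.1% of all detected genes. The differences, replicate 2 minus replicate 3, were 0.69 for Dbp, 0.57 for Bhlhe40, 0.24 for Per1, 0.10 for Nr1d2 and 0.02 for Per2 on the log2 scale, with a median of 0.24. Dbp and Bhlhe40, 2 of the 5, were higher by over 0.5 log2 units, against 2.36% of all detected genes. A larger difference than that of Dbp was found for 0.717% of detected genes, and than that of Bhlhe40 for 1.52%. Per3 (0.90) and Nr1d1 (0.74) were also higher on replicate 2, but both were at background on replicate 3 and do not belong beside those shares. Arntl was 0.18 higher and Clock 0.16 lower on replicate 2.

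The size of these differences depended on the processing. In the authors' processed values all 5 detected E-box driven genes were again higher on replicate 2, against 52.1% of all detected genes. The number of these 5 over 0.5 log2 units fell from 2 to 1, with Dbp at 0.57 and Bhlhe40 at 0.46, against 1.08% of all detected genes. Per3 (0.35) and Nr1d1 (0.32) were higher too, and with both included the number fell from 4 to 1. Without normalisation between arrays all 5 detected genes were higher too, but so were 82.3% of all detected genes, whose median difference was 0.19. Over 0.5 log2 units were 2 of the 5, against 8.62% of all detected genes, and Clock was then 0.02 higher on replicate 2. On that scale Dbp (0.89), Bhlhe40 (0.78) and Per1 (0.44) lay above the median of all detected genes, and Per2 (0.23) and Nr1d2 (0.29) lay close to it. With the mean of a gene's probes 4 of the 5 detected genes were higher, since the second Per2 probe was lower on replicate 2. The raw intensity of each of the 9 clock genes was lower on replicate 3, the dimmer array, than on replicate 2, and the part of brightness in these differences was not tested. The comparison of these arrays was chosen after the values were seen, it sets 1 culture against another, and it has no test.

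**Figure D3:**
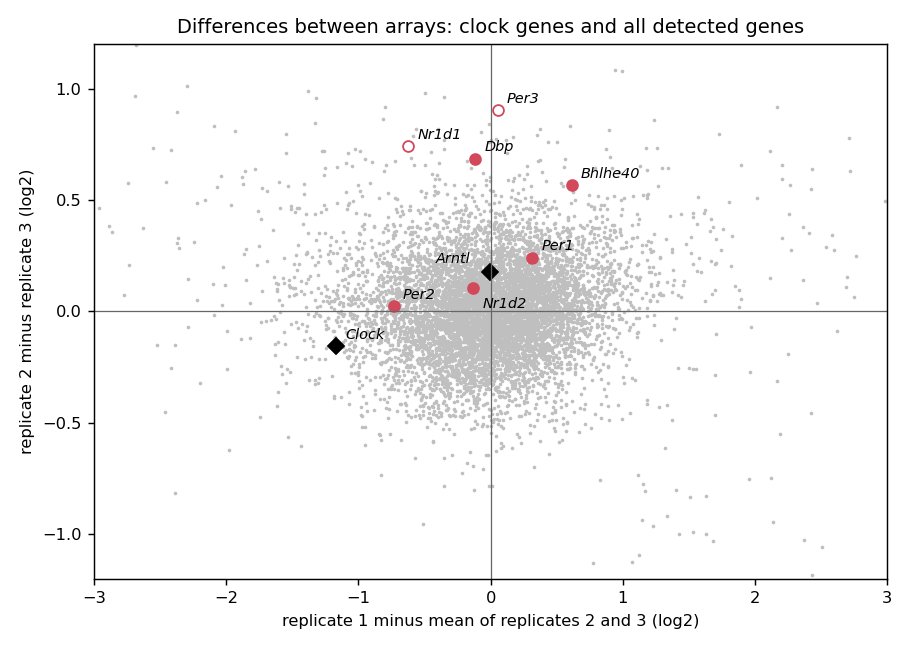
Replicate 2 minus replicate 3 against replicate 1 minus the mean of replicates 2 and 3, both in log2 units, for 7955 genes detected on all arrays (grey, with 37 outside the axes) and the 9 clock genes (circles, E-box driven; diamonds, Arntl and Clock; open, not detected on all arrays). The 5 detected E-box driven genes lie above 0 on the vertical axis, against 52.1% of all detected genes, with Dbp at 0.69 and Bhlhe40 at 0.57. Per3 and Nr1d1 also lie above 0 but were at background on replicate 3. Clock lies far to the left at −1.17.

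Further genes of the loop were measured in part. Each count of detected genes in the lists that follow stands beside 82.2% of all named genes. Of 5 other E-box driven genes, 3 had a named probe and all 3 were detected, and each was highest on replicate 2 and lowest on replicate 1. Among all detected genes 28.1% were highest on replicate 2 and 43.4% lowest on replicate 1, and the share with both was not counted. Cry2, the other cryptochrome gene, was at 6.61, 7.21 and 6.77 on replicates 1, 2 and 3, and Ciart, which encodes the CHRONO repressor of CLOCK and BMAL1, at 6.71, 7.58 and 7.53. Tef, a relative of Dbp, was nearly level, at 8.94, 9.10 and 9.07. All 3 were higher on replicate 2 than on replicate 3, where 52.1% of all detected genes were, but none by over 0.5 log2 units. The difference was 0.44 for Cry2, 0.05 for Ciart and 0.02 for Tef. On the activator side 1 of 5 further genes had a named probe, the ROR receptor gene Rorb, at 5.30, 5.64 and 5.97. It was lowest on replicate 1 and highest on replicate 3, as Clock was. Its signal was close to background, with detection p of 0.00855, 0.00321 and 0.00107 on replicates 1, 2 and 3.

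Of 15 genes that act on clock proteins, 10 had a named probe and 8 were detected. The median range of these 8 was 0.30 log2 units, beside 0.41 for all detected genes. The casein kinase genes Csnk1d (10.47 ± 0.14, n = 3) and Csnk1e (10.25 ± 0.07, n = 3), whose products phosphorylate PERIOD proteins, had small spreads. So did the kinase gene Gsk3b (9.03 ± 0.12, n = 3) and the ubiquitin ligase gene Btrc (7.58 ± 0.07, n = 3), whose product marks phosphorylated PERIOD for breakdown. The deubiquitinase gene Usp2, at 6.26, 5.92 and 5.09, and the demethylase gene Kdm5a, at 5.93, 5.74 and 5.01, were at background on replicate 3 alone. Among the 8 detected genes, 1 spanned over 2-fold, against 10.1% of all detected genes. This was Timeless, singled out here after its values were seen, at 10.28, 9.18 and 9.24. It was high on replicate 1, where Clock was low; its mammalian product acts mainly in DNA replication.

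Clock-controlled outputs did not share the order of Dbp. Of 4 genes 2 had a named probe and both were detected. Nampt, which encodes an enzyme of NAD synthesis, was at 6.20, 5.48 and 5.93, and Alas1, the first enzyme gene of haem synthesis, at 10.62, 10.17 and 10.05. Both were highest on replicate 1, where 43.3% of all detected genes were. Nampt was lowest on replicate 2, and Alas1 on replicate 3, as Dbp was.

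Genes that report the inputs to Per1 and Per2 were looked at beside them. Of 7 genes driven by the CREB and SRF factors, through which cyclic AMP and serum act, 6 had a named probe and 5 were detected. The immediate early gene Fos was at 8.65, 7.25 and 7.13, high on replicate 1 where Bhlhe40 and the brightest Per1 probe were highest. Egr1 (11.86 ± 0.06, n = 3), Junb (8.42 ± 0.17, n = 3), Sik1 (5.75 ± 0.11, n = 3) and the phosphatase gene Dusp1 (10.42 ± 0.19, n = 3) spanned less than 2-fold. The order of Dusp1, at 10.60, 10.45 and 10.22, was that of the brightest Per1 probe, as was that of Fos. Egr1, Junb and Sik1 had other orders, and the share of all detected genes with that order was not counted. Crem was above background on replicate 2 alone.

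Of 5 glucocorticoid receptor targets, 4 had a named probe and were detected. Tsc22d3, which encodes the glucocorticoid-induced leucine zipper protein, was at 8.01, 7.76 and 7.61, the order of the brightest Per1 probe. The other detected targets had other orders. Klf9 was at 9.48, 10.04 and 9.63, with replicate 2 the highest as for Dbp, and Fkbp5 was level (7.70 ± 0.07, n = 3). The kinase gene Sgk1 was at 10.35, 11.96 and 11.99, low on replicate 1 as Clock and Per2 were. The list as a whole had median deviations of −0.11, 0.15 and −0.02, and the CREB and SRF list −0.04, 0.03 and 0.003. The part of these inputs in the Per1 and Per2 values was not tested.

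**Figure D4:**
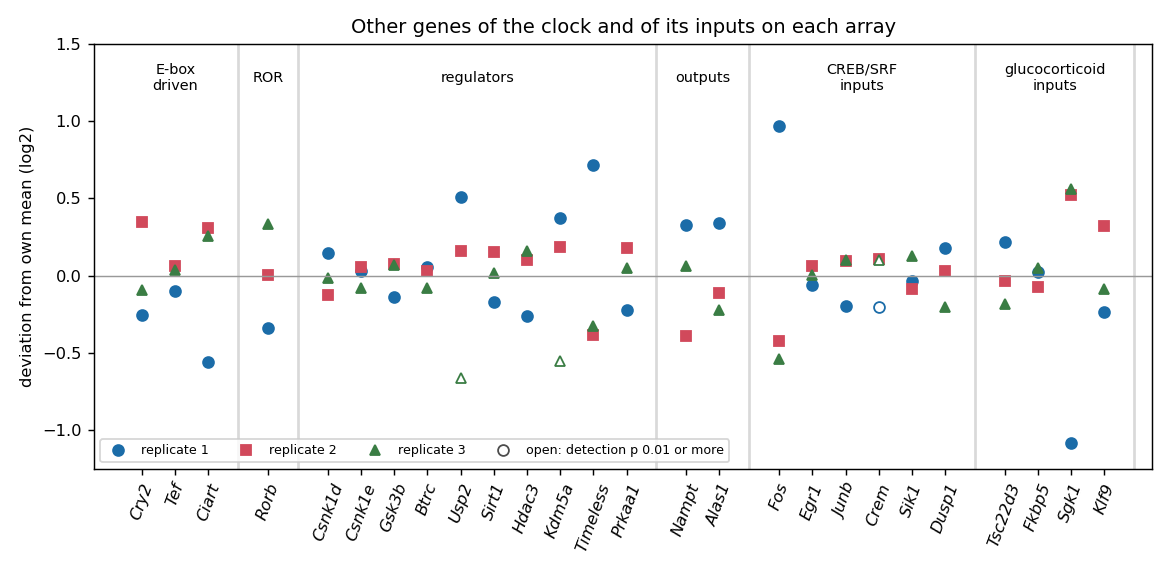
Deviation from the gene's own mean over 3 arrays, in log2 units, for other clock genes and genes of clock inputs with a named probe; symbols stand for arrays and open symbols for a detection p of 0.01 or more. Cry2, Tef and Ciart are lowest on replicate 1 and highest on replicate 2, and Fos (0.97) and Sgk1 (−1.08) have the largest deviations, both on replicate 1.

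Clock, the detected clock gene with the widest range after normalisation, was used to look for genes with a like profile. Without normalisation between arrays the detected genes Bhlhe40 (1.42), Per1 (0.96) and Dbp (0.89) had wider ranges than Clock (0.77). The measure was the mean absolute difference between deviations over the 3 arrays, across 7954 other detected genes. The nearest were Fez2 (0.0066 log2 units), the myosin gene Myo9a (0.0131), the malic enzyme gene Me2 (0.0156), the protein kinase gene Prkg2 (0.025) and the nucleosome-binding protein gene Hmgn5 (0.0255). Fez2 was at 10.55, 11.63 and 11.80 on replicates 1, 2 and 3. There were 139 genes within 0.1 of Clock, so 3 arrays give a profile that many genes share.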

How the data were processed

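The deposited unprocessed table gives a mean bead intensity per probe, with no background subtraction, and a detection p-value for each array, per the file headers. The authors' processed table holds log2 values of 17754 probes, quantile normalised as the values show and made with limma per the submitters' processing notes; the bead summary software is not given in the sources used here. Of its probes 15045 had 1 gene, 5 had several and were left out, and 2704 had none. Genes were matched by Entrez identifier to RefSeq.

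Levels were computed from the unprocessed intensities with neqc of limma 3.58.1 (R 4.3.3, offset 16), and each gene took its probe with the highest mean. A gene was detected where any probe had a detection p under 0.01 on all 3 arrays. With 1 group of 3 arrays no test was made, and precision is limited by the number of arrays. All steps were tested on simulated data. The alternatives were other detection thresholds, normalisations, probe rules, filters, arm definitions and each replicate left out. Other genes were named by a fixed rule: the first 4 measured of each list, and all detected or all undetected ones where there were 5 or fewer. The genes and lists were chosen with earlier results of these data known. Python 3.11.15, numpy 2.4.6 and pandas 2.3.3 were used.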

Additional observations from a re-analysis of the deposited data

How the results depend on the processing

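Of 90 recomputed summary values, 73 stayed within 1.5 times the count or within 1 SD of the arm difference. The count of detected clock genes was 6 at a detection p under 0.001, 8 at one under 0.05 and 9 with detection on at least 1 array. The arm difference on replicate 2 was near 0 and turned: it was −0.0011 with quantile normalisation alone, −0.0037 in the authors' processed values, −0.0359 with detected genes alone and −0.0486 with Clock alone, and −0.132 to 0.224 with a replicate left out. On replicate 1 it was 0.721 with Clock alone and −0.0539 with Arntl alone. The number of E-box driven genes over 0.5 log2 units higher on replicate 2 than on replicate 3 was 1 with quantile normalisation alone and 1 in the authors' processed values. Without normalisation between arrays, replicate 1 was highest for 4 clock genes, and 3 further clock genes spanned over 2-fold; that number was 0 with the mean of the probes and 2 with all measured genes. With a replicate left out, clock genes over 2-fold numbered 0 to 1, further clock genes over 2-fold 0 to 1, clock genes with replicate 1 lowest 3 to 6 and highest 2 to 4. Of 63 mean levels 19 moved by over 1 SD, and of 36 ranges 10 did; the cause was not tested. Leaving Cry1 out or moving it between arms was not run, since it had no named probe. No paired analysis was possible because the labels give a single group. Signals of Per3, Nr1d1, Arntl and Rorb lay near background, where intensity over background limits the differences that can be seen.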
